A study of Mus musculus with 2 samples.

Results

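The genes described here are 9 members of the NF-κB response, chosen by symbol among the 32285 genes measured. They are the feedback inhibitors Nfkbia and Tnfaip3, the subunits Nfkb1, Nfkb2 and Relb, the signalling regulator Birc3, and the cytokines Ltb, Csf1 and Ccl2. Single-cell 3′ RNA libraries had been made from cells of B16F10-OVALBUMIN/VEGFC skin tumors, a mouse melanoma line carrying the model antigen ovalbumin and the lymphatic growth factor VEGF-C. For each genotype 500K cells were injected intradermally, 3 tumors were pooled on day 15, and DAPI-, CD31+, CD45- cells were sorted, a gate for live endothelial cells without leukocytes. One group was Ifngr1iProx1 (Cre plus), named for the interferon-γ receptor chain Ifngr1 and for Prox1, the transcription factor of lymphatic identity, and the other was Ifngr1WT (Cre minus). Each group is 1 library from pooled animals, so there is no replicate and no test between genotypes. The age and strain of the mice and the part of Ifngr1 that is deleted are not given in the sources used here. All values are sums of unique molecular identifiers (UMIs) over the barcodes of a class, scaled to the class total as CPM. Brackets hold 95% intervals that cover counting error only, not differences between animals, tumors or sorts.

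NF-κB factors are dimers held inactive in the cytoplasm by inhibitor proteins. In the canonical pathway a receptor such as that for TNF or interleukin 1 activates a kinase complex that marks the inhibitor for destruction, and RelA and p50 enter the nucleus. In the non-canonical pathway, lymphotoxin and related ligands lead to processing of the Nfkb2 product and to RelB-p52 dimers. Several target genes encode the inhibitors themselves, which ends the response, and in endothelium others encode chemokines and adhesion molecules for leukocytes.

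The members were chosen with their values in these same libraries known, including their ratios between genotypes, so the levels and ratios of the 9 are descriptions. Barcodes were put into classes by marker genes, lymphatic endothelial-like (LEC-like) and blood endothelial-like (BEC-like) among them. Each class was split by Malat1, a nuclear long RNA, so that barcodes in which it makes up 0.1% of UMIs or more are called Malat1-rich and the others Malat1-poor. The Cre plus library gave 428 Malat1-rich and 302 Malat1-poor LEC-like barcodes, and the Cre minus library 35 and 155. The BEC-like numbers were 143 and 55 for Cre plus, 139 and 85 for Cre minus. Not all of the sorted material was endothelial by its markers: melanoma-like barcodes numbered 210 and 303 for Cre plus, 361 and 504 for Cre minus. Within 2-fold of the Malat1 boundary lay 38 (Cre plus) and 7 (Cre minus) LEC-like barcodes. The 9 genes together had 824 CPM for Cre plus and 455 CPM for Cre minus in Malat1-rich LEC-like barcodes, against 311 and 297 CPM in Malat1-poor ones.

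The classes were gated on marker sums, so these describe the gate and are no check of the names. The 7 lymphatic markers summed to 8050 CPM (Cre plus) and 9321 CPM (Cre minus) in Malat1-rich LEC-like barcodes, against 254 and 243 CPM in BEC-like ones. The 10 blood endothelial markers summed to 662 and 775 CPM in the former and to 8946 and 11193 CPM in the latter. The libraries held 66704257 (Cre plus) and 76967583 (Cre minus) UMIs, and 1 barcode sequence occurs in both. Median depth differed between groups: 29677.5 and 18377 UMIs per Malat1-rich LEC-like barcode in Cre plus and Cre minus, and 23849 and 13675 per BEC-like one. Ifngr1 itself had 32.6 CPM (452 UMIs) for Cre plus and 87.5 CPM (69 UMIs) for Cre minus in Malat1-rich LEC-like barcodes, a log2 ratio of -1.42 [-1.79, -1.04]. In Malat1-rich BEC-like barcodes it had 191 and 173 CPM, a log2 ratio of 0.14 [-0.03, 0.32]. A 3′ tag may lie outside the deleted part, so these values do not check the deletion fully.

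In the mouse genome (mm10, GENCODE M21) the 9 protein-coding genes lie apart on 8 chromosomes. Nfkbia (ENSMUSG00000021025) spans chr12:55489410-55492647 and Tnfaip3 (ENSMUSG00000019850) chr10:19000910-19015657, both on the minus strand. Nfkb1 (ENSMUSG00000028163) spans chr3:135584655-135691547 on the minus strand, Nfkb2 (ENSMUSG00000025225) chr19:46304320-46312385 on the plus strand, and Relb (ENSMUSG00000002983) chr7:19606217-19629438 on the minus strand. Birc3 (ENSMUSG00000032000) spans chr9:7848699-7873186 on the minus strand. Ltb (ENSMUSG00000024399) spans chr17:35194439-35196320 and Ccl2 (ENSMUSG00000035385) chr11:82035571-82037453, both on the plus strand, and Csf1 (ENSMUSG00000014599) chr3:107741048-107760469 on the minus strand.

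Promoter sequences are shown because these genes are known as targets of the factors they regulate. RefSeq windows on GRCm38.p6, from 250 bases before to 50 after a transcription start, were found for 6 of the 9 genes, with 9 windows in all. They were searched on both strands for the NF-κB consensus decamer, and capitals mark the matches below. It occurred in 5 of the 6 genes and 7 of the 9 windows, while 4.51% of all 32851 promoters and 5.14% of 27025 genes hold it. A match describes these letters and is not evidence of binding.
Nfkbia (chr12:55492598-55492897, minus strand): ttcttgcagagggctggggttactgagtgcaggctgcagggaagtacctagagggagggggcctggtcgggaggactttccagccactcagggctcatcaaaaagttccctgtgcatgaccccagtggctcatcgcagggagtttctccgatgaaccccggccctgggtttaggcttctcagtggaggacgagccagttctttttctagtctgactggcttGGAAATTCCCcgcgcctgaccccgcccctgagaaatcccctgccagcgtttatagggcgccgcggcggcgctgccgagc
Tnfaip3, first start (chr10:19015361-19015660, minus strand): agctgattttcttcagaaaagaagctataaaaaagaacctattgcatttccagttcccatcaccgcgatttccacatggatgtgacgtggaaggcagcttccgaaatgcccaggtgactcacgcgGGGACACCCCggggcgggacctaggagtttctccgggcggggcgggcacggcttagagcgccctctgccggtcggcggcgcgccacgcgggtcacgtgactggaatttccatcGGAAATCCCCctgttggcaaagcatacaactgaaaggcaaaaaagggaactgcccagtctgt
Nfkb2, first start (chr19:46304487-46304786, plus strand): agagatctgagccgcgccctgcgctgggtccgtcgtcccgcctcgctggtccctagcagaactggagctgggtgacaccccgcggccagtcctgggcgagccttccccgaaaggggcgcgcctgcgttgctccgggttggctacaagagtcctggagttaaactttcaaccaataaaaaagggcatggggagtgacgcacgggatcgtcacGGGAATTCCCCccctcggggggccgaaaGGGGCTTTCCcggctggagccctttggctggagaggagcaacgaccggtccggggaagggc
Ltb (chr17:35194257-35194556, plus strand): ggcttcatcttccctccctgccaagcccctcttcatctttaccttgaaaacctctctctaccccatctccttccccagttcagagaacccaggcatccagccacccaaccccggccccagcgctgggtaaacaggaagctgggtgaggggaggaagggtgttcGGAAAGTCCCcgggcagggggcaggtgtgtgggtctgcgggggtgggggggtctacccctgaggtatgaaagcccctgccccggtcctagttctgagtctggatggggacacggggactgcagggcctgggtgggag
Csf1 (chr3:107760420-107760719, minus strand): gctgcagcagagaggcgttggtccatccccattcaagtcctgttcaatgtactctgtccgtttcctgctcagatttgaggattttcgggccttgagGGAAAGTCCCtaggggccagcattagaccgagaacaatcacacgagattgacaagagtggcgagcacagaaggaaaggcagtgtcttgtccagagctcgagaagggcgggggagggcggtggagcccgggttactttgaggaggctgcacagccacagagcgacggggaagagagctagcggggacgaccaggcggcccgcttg

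In the Nfkbia window the match GGAAATTCCC began 29 bases before the start. Tnfaip3 held GGGACACCCC beginning 125 bases and GGAAATCCCC beginning 12 bases before its first start, and no match at its second. Nfkb2 held the overlapping matches GGGAATTCCC and GGAATTCCCC at 39 and 38 bases before its first start and GGGGCTTTCC at 11 bases before it, and matches in the windows of both other starts too. Those later windows overlap and share the match GGGACTTTCC, which begins 10 bases after the second start and 225 bases before the third. Ltb and Csf1 carried the same decamer, GGAAAGTCCC, beginning 87 and 154 bases before their starts. The Birc3 window (chr9:7873121-7873420) held none.

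Most of the 9 genes were lowest in melanoma-like barcodes and high in leukocyte-like ones. Nfkbia encodes IκBα, the main inhibitor that NF-κB re-induces. It had 591 CPM for Cre plus and 303 CPM for Cre minus in the few T and NK-like barcodes (5 and 9), and 465 and 384 CPM in macrophage and monocyte-like ones. BEC-like barcodes had 213 and 92.7 CPM, LEC-like 196 and 106 CPM, pericyte and fibroblast-like 122 and 117 CPM, and melanoma-like 35.4 and 32.2 CPM. In Cre minus the LEC-like interval [84.9, 132] overlapped those of the BEC-like [81.3, 105] and pericyte and fibroblast-like [89.4, 151] classes, so these neighbours in the order could not be told apart by counting.

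Tnfaip3 encodes A20, an enzyme that edits ubiquitin chains and shuts off the signal upstream of the kinase complex. Its level was 368 and 303 CPM in T and NK-like and 169 and 135 CPM in macrophage and monocyte-like barcodes of Cre plus and Cre minus. BEC-like barcodes had 9.31 and 9.73 CPM. LEC-like barcodes had 8.36 CPM for Cre plus and 0 UMIs for Cre minus, where 3 counts would be 3.80 CPM. Birc3, a ubiquitin ligase that binds TNF receptor adaptors, was likewise highest in T and NK-like (103 and 133 CPM) and macrophage and monocyte-like barcodes (101 and 121 CPM), against 25.6 and 21.6 CPM in LEC-like and 35.9 and 19.9 CPM in BEC-like ones.

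The subunits were detected in every class. Nfkb1, which encodes p105 and its product p50, had 172 CPM for Cre plus and 181 CPM for Cre minus in LEC-like barcodes and 154 and 158 CPM in BEC-like ones. Macrophage and monocyte-like barcodes had 174 and 204 CPM, T and NK-like ones 505 and 163 CPM, and melanoma-like ones 48.8 and 40.2 CPM. Relb, the partner of p52, had 70.1 and 41.8 CPM in LEC-like and 48.4 and 69.2 CPM in macrophage and monocyte-like barcodes. In Cre plus the LEC-like interval of Relb [65.7, 74.6] lay above that of the macrophage and monocyte-like class [37.2, 61.9], and in Cre minus these intervals, [28.8, 58.8] and [57.1, 83.0], overlapped. Nfkb2, which encodes p100 and p52, had 29.6 and 21.6 CPM in LEC-like and 24.8 and 14.4 CPM in BEC-like barcodes. It had 85.6 and 22.2 CPM in T and NK-like barcodes, from 10 and 3 UMIs, and 5.02 and 6.84 CPM in melanoma-like ones.

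Ltb and Ccl2 stood well apart between the endothelial classes. Ltb encodes lymphotoxin β, a membrane ligand that signals through the non-canonical pathway in stromal and endothelial cells. It had 68.1 CPM (945 UMIs) for Cre plus and 22.8 CPM (18 UMIs) for Cre minus in Malat1-rich LEC-like barcodes, and 4 and 0 UMIs in BEC-like ones. Its LEC-like level was 65.9-fold the BEC-like one in Cre plus and at least 19.5-fold in Cre minus. T and NK-like barcodes, the class where Ltb is best known, had 539 and 325 CPM. Macrophage and monocyte-like barcodes had 43.8 and 45.1 CPM, and melanoma-like ones 0.225 and 0.265 CPM. T and NK markers were at or near 0 in the LEC-like barcodes: 4 UMIs in Cre plus, with 5 of the 8 markers at 0 (all 3 CD3 chains, Cd8a and Ncr1), and 0 UMIs in Cre minus. B cell markers held 17 UMIs in Cre plus, with Cd79b at 0, and 0 UMIs in Cre minus.

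Ccl2, a chemokine that draws monocytes through the receptor Ccr2, was highest in macrophage and monocyte-like barcodes, at 1017 and 1255 CPM. Pericyte and fibroblast-like barcodes had 308 and 155 CPM, LEC-like 239 and 52.0 CPM, and BEC-like 32.8 and 0.389 CPM. Melanoma-like barcodes held 0.547 and 0.388 CPM. The LEC-like level in Cre plus was 7.28-fold the BEC-like one, a log2 ratio of 2.86 [2.61, 3.13], and 112 of the 127 BEC-like UMIs came from 1 barcode. Without the leading barcode of each class the levels were 165 and 3.95 CPM. In Cre minus 41 LEC-like UMIs stood against 1, a log2 ratio of 7.06 [4.50, 12.40]. Csf1, the growth factor of macrophages, was lower in LEC-like than in BEC-like barcodes of Cre plus, 15.9 against 30.5 CPM, a log2 ratio of -0.94 [-1.27, -0.61]. In Cre minus that ratio was -0.36 [-1.93, 0.96], from 6 and 25 UMIs. Its highest levels were in pericyte and fibroblast-like barcodes, 43.0 and 61.7 CPM.

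**Figure D1:**
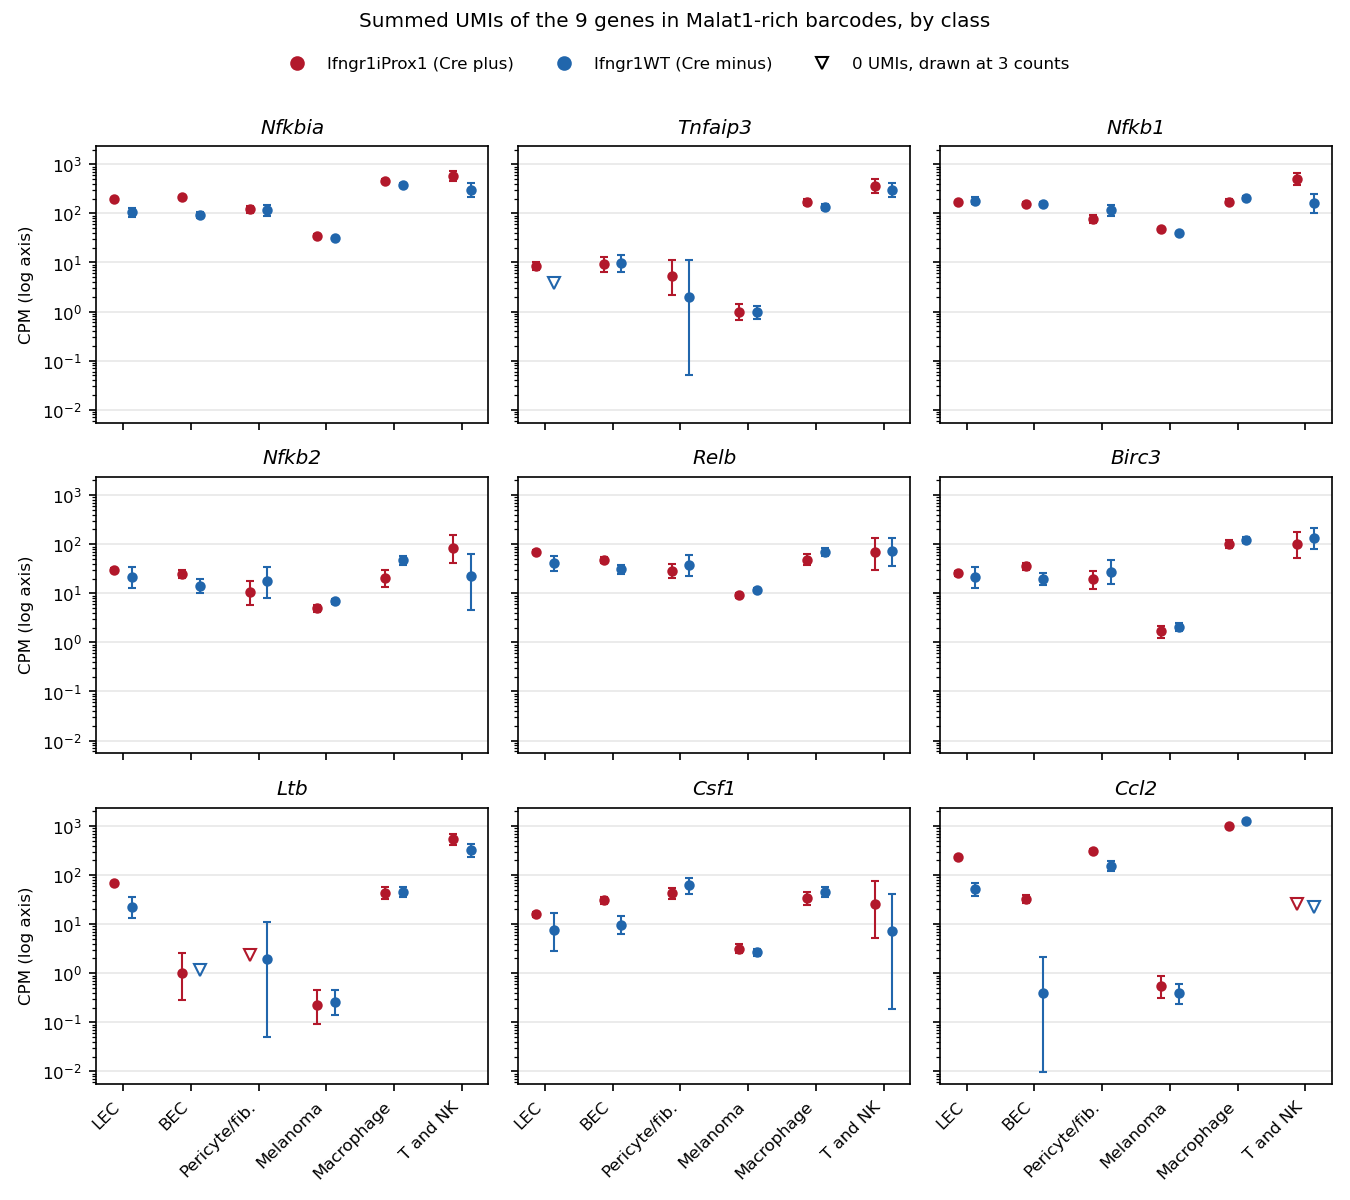
Level of each of the 9 genes (CPM of summed UMIs, log axis) in Malat1-rich barcodes of 6 classes, Cre plus in red and Cre minus in blue, with exact Poisson 95% intervals that cover counting error only. Open triangles mark 0 UMIs, drawn at the level 3 counts would give. Ltb stood at 68.1 and 22.8 CPM in LEC-like barcodes against 1.03 and 0 CPM in BEC-like ones, while Nfkb1 lay between 154 and 181 CPM in both.

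Between genotypes, 8 of the 9 genes had a higher level in Cre plus than in Cre minus in Malat1-rich LEC-like barcodes. The median log2 ratio of the members was 0.88, against -0.09 over the 11025 genes with at least 50 summed UMIs. Of the members 4 were at least 2-fold higher in Cre plus and 0 lower, and of all measured genes 4.46% were at least 2-fold higher and 4.08% lower. Since the members were picked with this contrast in view, nothing is read from that difference.

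Among the feedback genes, Nfkbia had 2716 UMIs (196 CPM) for Cre plus and 84 UMIs (106 CPM) for Cre minus, a log2 ratio of 0.88 [0.57, 1.21]. This value turned on a few Cre minus barcodes. One barcode of 139644 UMIs, 17.7% of the group's total, held 37 of the 84 Nfkbia UMIs and also 68 of the 81 UMIs of macrophage markers in the group. Macrophage markers summed to 35.7 CPM for Cre plus and 103 CPM for Cre minus, with Adgre1 at 0 in both and the other 9 of the 10 detected in each. Without the deepest barcode of each library the markers stood at 35.8 and 20.03 CPM, and the Nfkbia ratio was 1.44 [1.03, 1.89]. In the other direction, 2 lymphatic barcodes of Cre minus had been set aside because they also passed another class's gate, and they held 68 Nfkbia UMIs (2551 CPM). Macrophage markers in them stood at 1801 CPM. With such barcodes kept the ratio was 0.07 [-0.16, 0.32].

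Tnfaip3, the other feedback inhibitor, had 116 UMIs in 72 of the 428 Cre plus barcodes (16.8% [13.4, 20.7]) and 0 in the 35 Cre minus barcodes (0% [0, 10.0]). Thinned to 2000 UMIs the shares were 1.94% [0.84, 3.78] and 0% [0, 10.3], which do not separate. Its level was at least 2.20-fold higher in Cre plus, taking 3 counts for the 0. The 35 Cre minus barcodes limit what can be said of a gene this low.

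Of the subunits, Relb had 972 UMIs (70.1 CPM) and 33 UMIs (41.8 CPM), a log2 ratio of 0.74 [0.24, 1.29]. Nfkb2 had 411 and 17 UMIs, with a ratio of 0.46 [-0.24, 1.25], and Nfkb1 2386 and 143 UMIs, with a ratio of -0.08 [-0.32, 0.18]. By counting error alone, the Nfkb1 interval excluded a 2-fold difference in either direction, whereas that of Nfkb2 included both 0 and a 2-fold difference. Over 16 alternatives in the processing the Nfkb1 ratio ranged from -0.60 to 0.05. Birc3 had 355 and 17 UMIs (25.6 and 21.6 CPM), with a ratio of 0.25 [-0.45, 1.04]. The 5% of barcodes with the most UMIs were set per library and class over both Malat1 strata. Leaving them out kept 393 of the 428 Cre plus and 25 of the 35 Cre minus barcodes here, an uneven cut. Relb then stood at -0.14 [-0.68, 0.46] and Birc3 at -0.57 [-1.34, 0.32].

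All 3 cytokines stood higher in Cre plus, with 2 intervals off 0. Ltb had 945 UMIs (68.1 CPM) for Cre plus and 18 UMIs (22.8 CPM) for Cre minus, a log2 ratio of 1.58 [0.91, 2.34]. Ccl2 had 3313 UMIs (239 CPM) and 41 UMIs (52.0 CPM), a ratio of 2.20 [1.76, 2.68]. Csf1 had 220 UMIs (15.9 CPM) and 6 UMIs (7.61 CPM), and its ratio of 1.06 [-0.08, 2.52] did not exclude 0. Without the leading barcode of each gene in each library the ratios were 2.02 for Ltb, 2.07 for Ccl2 and 1.55 for Csf1. Without the 5% deepest barcodes of the class, the same uneven cut, Ltb stood at 0.80 [0.07, 1.64]. Thinning every barcode to 2000 UMIs left Ltb at -0.22 [-1.54, 1.46], an interval too wide to give a direction.

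**Figure D2:**
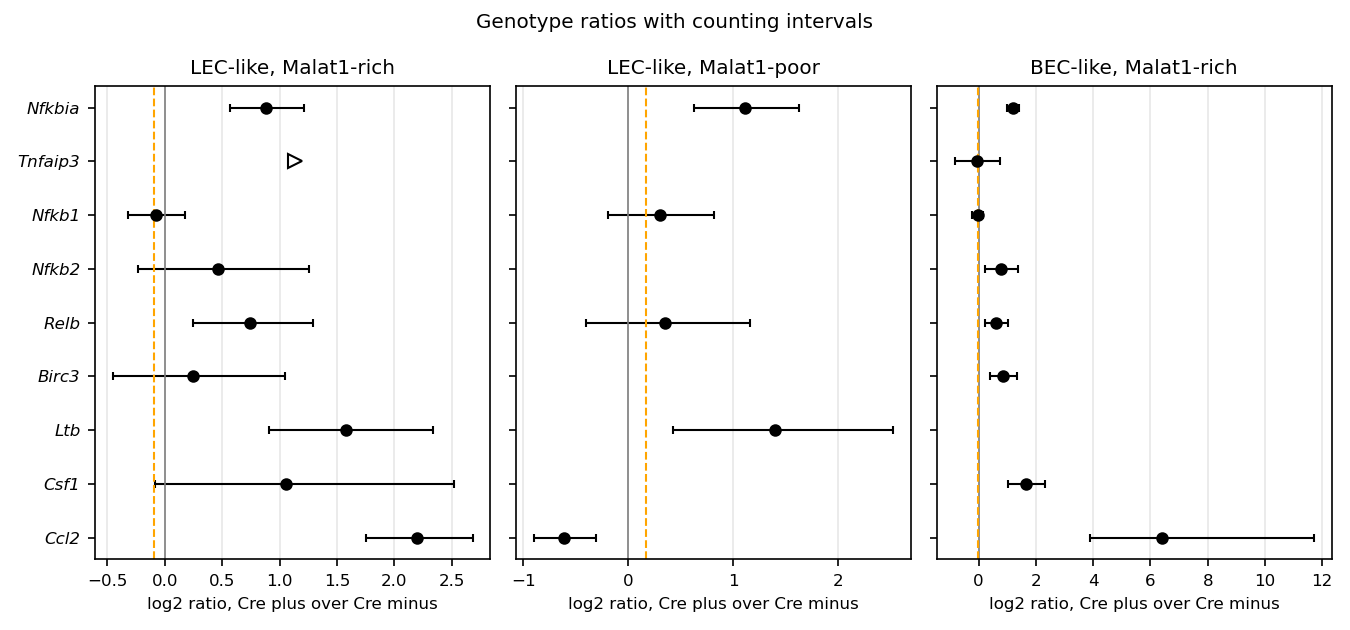
Log2 ratio of Cre plus over Cre minus for each gene with at least 50 summed UMIs, with exact conditional binomial 95% intervals (counting error only), in 3 groups of barcodes whose horizontal axes differ in range. The grey line is 0, the dashed orange line the median of all measured genes, and the open triangle the lower bound for Tnfaip3. Nfkbia lay at 0.88, 1.11 and 1.20 in the panels from left to right, and Ccl2 at 2.20, -0.61 and 6.40.

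Malat1-poor LEC-like barcodes were shallower, with median depths of 5552 (Cre plus) and 5251 (Cre minus) UMIs, and 5 of the 9 genes reached 50 summed UMIs. Nfkbia had 212 UMIs (84.4 CPM) and 41 UMIs (39.1 CPM), a log2 ratio of 1.11 [0.62, 1.63]. Ltb had 63 UMIs (25.1 CPM) and 10 UMIs (9.54 CPM), a ratio of 1.39 [0.42, 2.52]. Ccl2 stood the other way from the Malat1-rich barcodes, with 250 UMIs (99.6 CPM) and 159 UMIs (152 CPM), a ratio of -0.61 [-0.90, -0.31]. The leading barcodes held 77 of its UMIs (Cre plus) and 53 (Cre minus). Nfkb1 had a ratio of 0.30 [-0.19, 0.82] and Relb one of 0.35 [-0.40, 1.16]. The median of the 5 genes was 0.35, against 0.17 over 5819 genes, and 2 of them were at least 2-fold higher in Cre plus, as were 6.34% of all measured genes (0.653% were at least 2-fold lower). Macrophage markers summed to 72.5 CPM for Cre plus and 56.3 CPM for Cre minus here. The Nfkbia ratio was 0.02 when barcodes were thinned to 2000 UMIs in 1 random draw, 0.30 with classes from Leiden clusters, and 1.74 with the Malat1 boundary at 0.2%. In a separate draw to that depth, Nfkbia was seen in 8.19% [5.26, 12.0] of Cre plus and 3.95% [1.46, 8.39] of Cre minus barcodes. These intervals overlap, so thinned values do not settle the size of the Nfkbia ratio. The Ccl2 ratio was 0.02 after thinning and -1.38 without cycling barcodes.

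Malat1-rich BEC-like barcodes, from vessels whose lining is not known to need Prox1, were nearly equal in number between genotypes. Nfkbia had 824 UMIs (213 CPM) for Cre plus and 238 UMIs (92.7 CPM) for Cre minus, a log2 ratio of 1.20 [0.99, 1.42] that stayed between 1.14 and 1.79 under the 16 alternatives run. Csf1 had 118 UMIs (30.5 CPM) and 25 UMIs (9.73 CPM), a ratio of 1.65 [1.02, 2.33], and 1.33 to 2.11 under the alternatives. Birc3 had a ratio of 0.86 [0.38, 1.35], Nfkb2 one of 0.78 [0.22, 1.37] and Relb one of 0.62 [0.23, 1.02]. Over the alternatives Birc3 ranged from 0.34 to 0.97, Relb from 0.39 to 0.74 and Nfkb2 from -1.21 to 1.08, the low value of Nfkb2 from thinned barcodes with an interval of [-3.80, 0.92]. Nfkb1, with 154 and 158 CPM, stood at -0.04, and Tnfaip3, with 36 and 25 UMIs, at -0.06 [-0.84, 0.73]. Macrophage markers summed to 31.5 CPM for Cre plus and 20.6 CPM for Cre minus, and T and NK markers to 2 and 0 UMIs.

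Ccl2 in BEC-like barcodes rested on 1 barcode. Of its 127 UMIs in Cre plus 112 came from that barcode, and Cre minus held 1 UMI, a log2 ratio of 6.40 [3.89, 11.71]. Without the leading barcodes the Cre minus count was 0 and the ratio at its bound was 1.75. The median of the 8 measured members was 0.82, against -0.04 over 9316 genes. Of the members 3 were at least 2-fold higher in Cre plus and 0 lower, beside 2.39% and 1.21% of all measured genes. In Malat1-poor BEC-like barcodes Nfkbia alone was measured, with 42 UMIs (137 CPM) and 34 UMIs (68.5 CPM), a ratio of 1.00 [0.31, 1.69]. There 2.25% of 2130 measured genes were at least 2-fold higher in Cre plus.

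Outside endothelium few members passed 2-fold. In Malat1-rich melanoma-like barcodes (210 Cre plus, 361 Cre minus) 7 members were measured, with a median of 0.06 and 0 past 2-fold in either direction, beside 0.531% of genes higher and 0.584% lower. Nfkbia stood there at 0.14 [0.02, 0.25]. In macrophage and monocyte-like barcodes (37 and 50) all 9 were measured, with a median of -0.27. Nfkb2 was the 1 member past 2-fold, at -1.18 [-1.87, -0.53], where 2.50% of genes were at least 2-fold higher and 2.06% lower. Nfkbia stood at 0.27 [0.11, 0.44] and Tnfaip3 at 0.32 [0.05, 0.60] in these barcodes. The 5 members measured in pericyte and fibroblast-like barcodes (26 and 15) had a median of -0.37 and 0 past 2-fold, beside 2.58% and 4.80% of genes, with Ccl2 at 0.99 [0.64, 1.36]. Differences between classes in these ratios were not tested.

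Members differed in how many LEC-like barcodes held their UMIs. In Cre plus, Nfkb1 needed 97 of the 428 Malat1-rich barcodes to reach 50% of its UMIs, Relb 70, Nfkb2 60, Nfkbia 53 and Birc3 51. Csf1 needed 29, Tnfaip3, with 116 UMIs in all, 19, Ltb 16 and Ccl2 5. A single barcode, one with cycling markers above the gate, held 1034 of the 3313 Ccl2 UMIs (31.2%), and without it the level was 165 rather than 239 CPM. The leading Ltb barcode held 75 of 945 UMIs and the leading Nfkbia barcode 94 of 2716 (3.46%). In Cre minus, with 35 barcodes, 2 barcodes were enough to hold 50% of the UMIs for each of Nfkbia, Ltb, Csf1 and Ccl2. These were not the same barcodes for every gene, since Nfkbia, Ltb and Csf1 each had a different leading barcode. Csf1 had 6 UMIs there in all.

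Shares of barcodes with a UMI depend on depth, so they were also taken at 1 fixed depth. Nfkbia was seen in 84.3% [80.6, 87.7] of Malat1-rich LEC-like barcodes for Cre plus and 54.3% [36.6, 71.2] for Cre minus, and after thinning to 2000 UMIs in 25.7% of 413 and 17.6% [6.76, 34.5] of 34 barcodes. In BEC-like barcodes the thinned shares were 25.5% [18.5, 33.7] and 7.25% [3.53, 12.9]. Melanoma-like barcodes, the low end of its order, gave 10.1% and 7.74% thinned. At that depth the Cre minus shares of both endothelial classes, whose intervals include these values, could not be told from the melanoma-like ones. The unthinned Cre minus level of Nfkbia had a melanoma-like interval, [30.6, 33.8] CPM, below both endothelial ones, [81.3, 105] (BEC-like) and [84.9, 132] (LEC-like). Ltb was seen in 42.5% and 25.7% and Ccl2 in 43.9% and 37.1% of Malat1-rich LEC-like barcodes before thinning, and in 10.4% and 5.88% and in 13.8% and 8.82% after it.

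**Figure D3:**
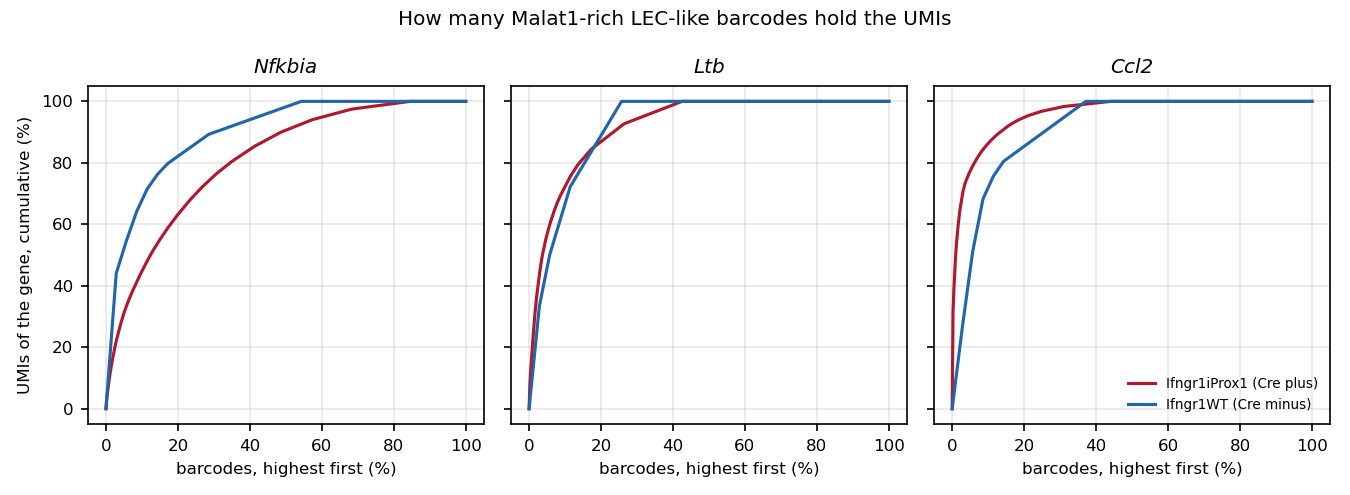
Cumulative share of the UMIs of Nfkbia, Ltb and Ccl2 (vertical axis, percent) held by Malat1-rich LEC-like barcodes ordered from the highest count (horizontal axis, percent of barcodes), for the 428 Cre plus barcodes in red and the 35 Cre minus barcodes in blue. The Cre plus Ccl2 curve climbs steepest, with 5 barcodes holding 50% of the UMIs, while the curve for Nfkbia takes 53.

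Ltb differed between cycling and other LEC-like barcodes. Of the Malat1-rich Cre plus barcodes 57 had cycling markers above the gate and 371 had not. Ltb had 20.2 CPM in the cycling and 78.1 CPM in the other barcodes, a log2 ratio of -1.95 [-2.40, -1.53], and of -2.21 [-2.74, -1.73] without the leading barcode of each set. Ccl2 had 590 and 166 CPM, but without the leading barcodes these were 159 and 145 CPM, a ratio of 0.13 [-0.04, 0.29]. Csf1 stood at 0.54 [0.06, 1.00], and at 0.35 [-0.18, 0.84] without them. Nfkbia at -0.28 [-0.44, -0.12] and Nfkb1 at -0.26 [-0.43, -0.09] were slightly lower in cycling barcodes, and for Tnfaip3, Nfkb2, Relb and Birc3 the intervals included 0. Without the leading barcodes Birc3 stood at -0.50 [-0.99, -0.03].

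CPM did not follow depth for every member. Over 4 equal sets of 107 Cre plus barcodes by depth, with median depths from 12509 to 52889 UMIs, Nfkbia had 178, 212, 179 and 203 CPM from the shallowest to the deepest. Birc3 went from 37.9 CPM in the shallowest to 21.3 CPM in the deepest set, and Nfkb1 from 229 to 165 CPM. Ccl2 went from 67.0 to 374 CPM, and 1034 of its 2353 UMIs in the deepest set came from 1 barcode. Depth also differed between genotypes, as given above. Its part in the ratios was examined only through the thinned values and by leaving out the deepest barcodes.

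Malat1-rich barcodes held more of each member than Malat1-poor ones in Cre plus. All 9 were at least 2-fold higher there in LEC-like barcodes, with log2 ratios from 1.21 (Nfkbia) to 3.39 (Tnfaip3), beside 44.4% of all measured genes. In Cre minus 4 members could be compared, and Nfkbia (1.44), Nfkb1 (2.05) and Relb (1.13) were at least 2-fold higher, where 44.3% of genes were, while Ccl2 was lower in the Malat1-rich barcodes at -1.55 [-2.08, -1.04], where 8.07% of genes were at least 2-fold lower. Since the share of Malat1-rich barcodes among LEC-like ones differed between the libraries (428 of 730 and 35 of 190), the strata were kept apart. With both strata summed, all 9 genes stood higher in Cre plus in LEC-like barcodes, 5 of them at least 2-fold and with a median of 1.13, beside 8.42% of genes higher and 0.768% lower. Nfkb1 shows what the summing does: its ratio was 0.58 [0.37, 0.80] over both strata but -0.08 and 0.30 within them. Summed BEC-like barcodes had a median of 0.78 over 8 members, with 3 at least 2-fold higher, beside 2.11% of genes higher and 0.697% lower. Cre plus had 143 Malat1-rich beside 55 Malat1-poor barcodes of this class, Cre minus 139 beside 85, so summing mixes unequal strata here as well.

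The BEC-like strata were compared in the same way. In Cre plus 4 of 7 members compared were at least 2-fold higher in Malat1-rich barcodes, beside 38.5% of genes, and in Cre minus 1 of 4, beside 45.8% (2.86% and 8.51% of genes were at least 2-fold lower). That one was Nfkb1, at 1.54 [0.98, 2.16]. The median of the members compared was 1.14 in Cre plus, against 0.63 over all measured genes. In Cre minus it was 0.45, below the 0.83 of all measured genes. Nfkbia stood at 0.64 [0.19, 1.12] for Cre plus and 0.44 [-0.09, 1.00] for Cre minus. The single leading Ccl2 barcode among the Malat1-poor BEC-like ones of Cre minus held all 39 UMIs of that gene. In melanoma-like barcodes 2 of 6 members (Cre plus) and 2 of 7 (Cre minus) were at least 2-fold higher in Malat1-rich ones, beside 22.0% and 18.0% of genes, with 0.348% and 0.398% lower. There Nfkbia stood at 0.20 [-0.03, 0.43] and 0.05 [-0.12, 0.22], and Nfkb1 at 1.38 [1.10, 1.67] and 1.21 [1.00, 1.43].

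The other genes of the pathway are given by the lists they belong to, with genes that reach 50 summed UMIs counted and the 3 of most UMIs named. The counts past 2-fold in them stand beside 4.46% of all measured genes higher and 4.08% lower in LEC-like, and 2.39% and 1.21% in BEC-like barcodes. Of the 7 other subunits and inhibitors 6 were measured in Malat1-rich LEC-like barcodes. All 6 had ratios above 0, with a median of 0.65 and 0 past 2-fold. Nfkbie, the inhibitor IκBε, stood at 0.82 [0.22, 1.48], Rela, the p65 subunit, at 0.52 [-0.02, 1.12], and the nuclear co-regulator Nfkbiz at 0.15 [-0.31, 0.65]. In BEC-like barcodes the same list had a median of 0.85, with 3 of 6 at least 2-fold higher, among them Nfkbib at 1.35 [0.83, 1.91], while Rela stood at 0.01 [-0.34, 0.37].

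The lists of kinases and adaptors, receptors and ligands had medians near 0 in LEC-like barcodes. Kinases, adaptors and receptors lay on both sides of it. The 21 kinases and adaptors were all measured in LEC-like barcodes, with a median of -0.04, 0 at least 2-fold higher and 1 lower, and a range from -1.44 to 0.82. Tab2 stood at 0.07, Ikbkb, a catalytic subunit of the inhibitor kinase, at 0.01 and Traf3, a brake on the non-canonical pathway, at -0.48 [-0.86, -0.08]. The 14 receptors include Ccr2, Csf1r, Ackr2 and Ackr3, which bind chemokines or Csf1, so the list is wider than the receptors upstream of NF-κB. Of the 14 receptors 9 were measured, with a median of 0.10, 2 at least 2-fold higher and 0 lower. The TNF receptor Tnfrsf1a stood at 0.10 [-0.30, 0.53], the scavenger of inflammatory chemokines Ackr2 at -0.84 [-1.21, -0.44] and Cd40 at -0.26 [-0.70, 0.22]. Only 2 of the 9 ligands were measured, Tnfsf10 and Tnfsf12, both at 0.10. Tnf had 28 UMIs for Cre plus and 0 for Cre minus. In BEC-like barcodes the medians were 0.14 for 20 kinases and adaptors, -0.02 for 9 receptors and 0.48 for 2 ligands.

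Not all inducible genes stood as the members did. Of the 25 other inducible targets 11 were measured in LEC-like barcodes, with a median of 0.11, 3 at least 2-fold higher and 1 lower. The protease gene Plau had 198 CPM for Cre plus and 408 CPM for Cre minus, a ratio of -1.04 [-1.21, -0.87]. The survival gene Bcl2l1 stood at -0.61 [-0.89, -0.31] and Sod2, mitochondrial superoxide dismutase, at 0.11 [-0.28, 0.54]. In BEC-like barcodes the median over 12 was 0.78, with 5 at least 2-fold higher and 1 lower; Tnfaip2 stood at 0.06 and Cflar at 0.12, and Vegfc had 62.0 and 124 CPM.

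Immediate-early and stress genes, which respond to cell handling as well as to signals, stood higher in Cre plus beside the members. All 16 were measured in both classes. In LEC-like barcodes their median was 0.57, with 5 at least 2-fold higher in Cre plus and 0 lower (4.46% and 4.08% of all measured genes), and in BEC-like ones it was 1.31, with 9 higher and 0 lower (2.39% and 1.21%). Jund stood at 0.76 [0.53, 1.00] and Klf2 at 0.73 [0.46, 1.01] in LEC-like barcodes, and Jund at 0.72 [0.56, 0.89] and Jun at 0.81 [0.62, 1.00] in BEC-like ones. Hsp90aa1, the most abundant by UMIs, stood at 0.02 and 0.06. Together the 16 genes had 2147 CPM for Cre plus and 1646 CPM for Cre minus in LEC-like barcodes, and 1813 and 1088 CPM in BEC-like ones. Their part in the ratios of the 9 genes was not tested.

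**Figure D4:**
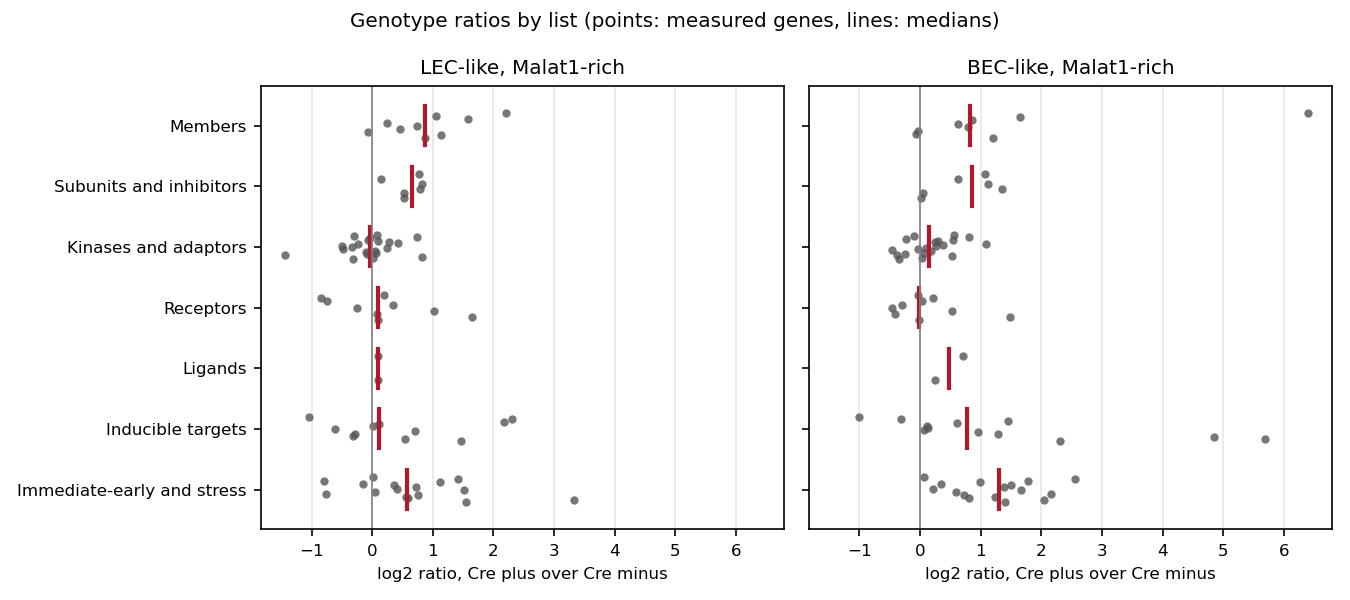
Log2 ratios of Cre plus over Cre minus for the 9 members and 6 other lists of the pathway in Malat1-rich LEC-like and BEC-like barcodes, each point a gene with at least 50 summed UMIs and each red line a median, with a gene at 0 UMIs in Cre minus drawn at its bound. The kinases and adaptors centre near 0 in both panels (medians -0.04 and 0.14), and the immediate-early and stress genes lie at 0.57 and 1.31.

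Other genes with a like pattern across classes were found by correlation. The mean standardized profile of the 9 genes over 15 units (library, class and Malat1 stratum with at least 20 barcodes) was highest in macrophage and monocyte-like barcodes, at 1.61 in Cre minus and 1.37 in Cre plus. It was 0.95 in Malat1-rich LEC-like barcodes of Cre plus and 0.37 in those of Cre minus, 0.63 and 0.02 in the BEC-like ones, and lowest, at -1.40, in Malat1-poor melanoma-like barcodes of Cre plus. Among 13219 genes the most alike by Pearson correlation were Btg1 (0.969), Ifih1 (0.965), Bcl3 (0.959), Dusp1 (0.949), Ell2 (0.948), Trim25 (0.946), Hs6st1 (0.945), Zfp36l2 (0.944), Furin (0.943) and Trafd1 (0.943). The units share libraries, so these are descriptions. Across the 428 Malat1-rich LEC-like barcodes of Cre plus, Nfkbia and Relb had the highest rank correlation of any pair of members, 0.45, and Tnfaip3 and Nfkb2 the lowest, 0.04.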

How the data were processed

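Single-cell 3′ libraries (kit v3.1) of DAPI-, CD31+, CD45- tumor cells were used, 1 library for each genotype. The deposited matrices hold raw UMI counts per gene and barcode, made with Cell Ranger 7.0.0 on mm10 per the submitters' processing notes. The gene annotation used for counting, any handling of doublets and strand settings are not given in the sources used here.

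The barcode filter asked for 500 or more genes and less than 10% mitochondrial UMIs, and 1782 of 2491 (Cre plus) and 1552 of 2502 (Cre minus) passed. A class needed at least 3 markers of a set and 0.1% of UMIs from it, and the largest share decided. This gate was chosen after the data were seen. Barcodes that passed for 2 classes, other than the endothelial pair, were left out as mixed (29 and 39), and no doublet caller was used. Barcodes of no class numbered 219 and 129.

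UMIs were summed per class, Malat1 stratum and library. CPM has exact Poisson, shares Clopper-Pearson and log2 ratios exact conditional binomial 95% intervals. A gene was measured with at least 50 summed UMIs, and a count of 0 was replaced by 3 counts for a bound. UMIs are not independent samples of animals, so intervals cover counting error only. With 1 library per group no p-value was computed. The ratio script was checked on simulated counts.

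The 9 genes and all lists were chosen with earlier results of these data known. Named are the 9 genes, the 3 genes of most UMIs in each other list, the class markers, and the 10 genes most alike by Pearson correlation of log2(CPM + 1), leaving out the 9 themselves, unnamed and Y-linked genes, and those of mitochondria, ribosomal proteins, haemoglobin and X inactivation. The alternatives, 13 planned and 3 added after seeing the data, covered the filter, classes, Malat1 boundary, scaling, thinning, cycling, minimum counts and leading barcodes. Python 3.11.15, numpy 2.4.6, scipy 1.17.1, pandas 2.3.3, scanpy 1.11.5, leidenalg 0.10.2 and matplotlib 3.10.9 were used.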

Additional observations from a re-analysis of the deposited data

Results flagged for a closer look

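Several members had ratios between genotypes with intervals off 0 in opposite directions in different classes, and these differences were not tested. Ccl2 stood at 2.20 in LEC-like, 6.40 in BEC-like and 0.99 in pericyte and fibroblast-like Malat1-rich barcodes, but at -0.61 in Malat1-poor LEC-like and -0.30 in macrophage and monocyte-like ones. Relb stood at 0.74 in LEC-like and 0.62 in BEC-like Malat1-rich barcodes, against -0.36 and -0.80 in Malat1-rich and Malat1-poor melanoma-like barcodes and -0.51 in macrophage and monocyte-like ones. Nfkb2 stood at 0.78 in BEC-like barcodes, against -0.45 and -0.82 in Malat1-rich and Malat1-poor melanoma-like and -1.18 in macrophage and monocyte-like barcodes. Nfkb1 stood at 0.28 in melanoma-like and at -0.60 in pericyte and fibroblast-like Malat1-rich barcodes.

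Ltb also appeared outside the classes compared. Barcodes of Cre plus that passed the filter but no class's gate held 25 Ltb UMIs in 219 barcodes (20.2 CPM), and those of Cre minus held 0 in 129 barcodes. Of the 25 UMIs 20 lay in 3 Malat1-rich barcodes, 14 of them in 1.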

How the results depend on the processing

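No paired analysis was possible because each genotype is 1 library. Over 16 alternatives the 23 member ratios gave 365 values, of which 347 kept the direction, 35 moved beyond the counting interval. Of ratios of at least 2-fold, 1 changed sign: Ltb in Malat1-rich LEC-like barcodes, at -0.22 when thinned to 2000 UMIs. Smaller ratios with intervals off 0 that changed sign were Nfkb2 in Malat1-rich BEC-like barcodes (-1.21, thinned), Relb in Malat1-rich LEC-like ones (-0.14, without the 5% deepest barcodes) and Ccl2 in Malat1-poor LEC-like ones (0.02, thinned). The median over members ranged from 0.48 to 1.11 in Malat1-rich and from 0.02 to 0.65 in Malat1-poor LEC-like barcodes, and from 0.38 to 0.95 and from 0.27 to 1.23 in the BEC-like ones. The lowest of the last, 0.27, came with classes from Leiden clusters, and thinning gave none there. Scaling by the median gene ratio moved the 4 medians to 0.97, 0.18, 0.86 and 0.98. Ccl2 in Malat1-rich LEC-like barcodes stood at 1.36 thinned and 1.52 without cycling barcodes, and in BEC-like ones at 2.48 without the 5% deepest barcodes and, as a bound, at 0.43 thinned. Nfkbia in Malat1-rich LEC-like barcodes stood at 1.50 as a mean over barcodes and 1.29 without the 5% deepest of the class, taken over both strata. It stood at 2.65 thinned in 1 random draw. In a separate draw to that depth Nfkbia was seen in 25.7% [21.5, 30.2] of Cre plus and 17.6% [6.76, 34.5] of Cre minus barcodes. These intervals overlap, so thinned values do not settle the size of this ratio. In Malat1-rich LEC-like barcodes Tnfaip3 gave a value under 14 and Csf1 under 15 of the 16 alternatives. A value was left out where neither library passed 3 counts. It was also left out where a bound from 0 UMIs fell past equal levels, so such a bound could not count against the direction. The causes of the changes under the alternatives were not tested. The 35 Malat1-rich LEC-like barcodes of Cre minus (788794 UMIs) set the width of the intervals in that class.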
